A study of Homo sapiens with 12 samples.

Results

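The genes described here are 42 genes of ribosome biogenesis and RNA polymerase I transcription, listed by symbol for their known roles. The list was drawn up with earlier results of these data known. Of several rows on a primary chromosome the rule takes the one with the highest mean FPKM, but no listed gene had several. Each was found in the deposited expression table of 63129 gene IDs. DKC1 and BOP1 had a second row on a patch sequence, listed at 0 in all 12 libraries, and the row on the primary chromosome was used. All 42 passed the filter on low values (at least 1 FPKM in at least 2 libraries), as did 18731 genes in all. FPKM is a count of sequenced fragments scaled to transcript length and library size, so levels can be set side by side between genes, while a change in the total RNA of a cell would not appear in it.

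RNA was measured in 3 cell lines derived from diffuse large B-cell lymphoma of the germinal centre type, a cancer of mature B cells. All 3 lines carry an activating mutation in the catalytic (SET) domain of EZH2, the enzyme that methylates histone H3 at lysine 27 and represses genes. KARPAS-422 received 1.5 µM CPI-169 (3 libraries) or 0.1% DMSO (3 libraries), Pfeiffer received 1.5 µM GSK343 (2 libraries) or 0.1% DMSO (2 libraries), and RL received 0.1% DMSO only (2 libraries), each for 4 days from seeding. KARPAS-422 and Pfeiffer were seeded at 500000 cells per ml and RL at 200000, so seeding density and line cannot be told apart in any comparison with RL. The sample titles and the protocol give the name CPI-169 or CPI169, while the treatment label reads CPI524169; the compound is called CPI-169 here. CPI-169 and GSK343 are inhibitors of EZH2 catalysis. KARPAS-422 and Pfeiffer are described by the submitters as lines whose phenotype responds to such inhibitors, and RL as a line that does not. Each line got its own compound, so line and compound cannot be told apart. The labels do not say that replicates came from separate cultures, and p-values then measure only the spread between these libraries.

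Ribosomes are built in the nucleolus. RNA polymerase I, recruited to ribosomal DNA by UBTF and RRN3, transcribes one long precursor RNA. Small nucleolar ribonucleoproteins (snoRNPs) methylate it (box C/D class, with FBL, NOP56 and NOP58) or convert uridines to pseudouridine (H/ACA class, with DKC1, GAR1 and NHP2). A large processome then cuts out and folds the small subunit RNA, while separate assembly factors, such as the BOP1, PES1 and WDR12 complex, mature the large subunit. Many of these genes are textbook targets of MYC, which binds the sequence CACGTG (an E-box) and is active in dividing germinal centre lymphomas.

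To describe the promoters of these genes, 4 sequence words were counted on both strands in the RefSeq promoter table of GRCh38.p14 (250 bases before to 50 bases after each start). The table held 34 of the 42 genes and 27305 genes in all. CACGTG was present for 16 of the 34 genes (47.1%) and for 8.78% of all genes in the table. CCGGAAGT, a core of sites bound by ETS-family factors, was present for 7 (20.6%, against 4.95% of all genes). The words CTCGCGAG and CGCATGCG were present for 3 (8.82%, against 1.23%) and 2 (5.88%, against 2.46%). None of the 4 words contains another. A match describes the letters only and is not evidence of binding. Most CACGTG matches of the listed genes lie at or after the start. To show some upstream words, stretches before the starts of 4 genes that fell with CPI-169 are printed here (UTP20, GAR1, DDX21 and NOP14). Capitals mark the matching words or their reverse complements. The stretches are limited to bases that no annotated exon covers and read 5′ to 3′ on the strand of the gene. They lie at chr12:101279995-101280104, plus strand, chr4:109815411-109815509, plus strand, chr10:68956020-68956127, plus strand and chr4:2963407-2963516, minus strand of GRCh38.p14, a later build than that of the expression table (hg19).
UTP20: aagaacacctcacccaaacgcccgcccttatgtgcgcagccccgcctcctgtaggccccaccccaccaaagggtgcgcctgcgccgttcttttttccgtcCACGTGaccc
GAR1: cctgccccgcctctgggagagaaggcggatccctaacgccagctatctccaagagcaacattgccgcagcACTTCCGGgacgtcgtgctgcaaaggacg
DDX21: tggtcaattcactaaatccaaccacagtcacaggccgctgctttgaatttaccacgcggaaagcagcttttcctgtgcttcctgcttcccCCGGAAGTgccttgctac
NOP14: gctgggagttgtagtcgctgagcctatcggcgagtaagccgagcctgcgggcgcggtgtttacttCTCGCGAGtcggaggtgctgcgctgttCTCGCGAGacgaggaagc
UTP20 has CACGTG starting 10 bases before its start. GAR1 and DDX21 have the ETS core 29 and 60 bases before theirs, and each also has CACGTG outside the stretch shown. NOP14 has CTCGCGAG at 45 and again at 18 bases before its start. It also has CACGTG from base 16 counted from its start, outside the stretch shown. Stretches of RRN3 and DDX10, which also fell, held none of the words and are not printed, though each has a word elsewhere in its promoter. The stretches of LYAR, NPM1 and NHP2, which did not fall with CPI-169, also held none.

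The libraries summed to between 369524 and 628281 FPKM, and the deposited table gives no read counts, so the depth behind each value is unknown. The 42 genes together held 0.489% to 0.503% of that sum in the 3 DMSO libraries of KARPAS-422, 0.500% to 0.511% in its CPI-169 libraries, 0.632% and 0.631% in the Pfeiffer DMSO libraries, 0.504% and 0.617% with GSK343, and 0.751% and 0.749% in RL. The 2 GSK343 libraries stood apart from each other. Their log2 values differed by a root mean square of 0.497 over all genes tested (0.333 over the 42 genes), against 0.185 (0.129) for the 2 Pfeiffer DMSO libraries, so GSK343 values are given for each library. All 6 B-cell markers stood at 1 FPKM or more in every library, though CD79A was at 11.1 to 17.6 FPKM in Pfeiffer and at 330 to 543 FPKM elsewhere. Of 5 T-cell markers, CD8A stood at 411 and 412 FPKM with DMSO and 297 and 395 FPKM with GSK343 in Pfeiffer. The other 4 were below 1 FPKM in that line. CD3G stood at 34.0 to 35.3 FPKM with DMSO and 49.0 to 55.2 FPKM with CPI-169 in KARPAS-422. There CD3D was at 0.821 to 2.39 FPKM, and CD3E, CD2 and CD8A were below 1 FPKM. RL had CD3E at 4.28 and 3.92 FPKM and the other T-cell markers below 1 FPKM. EPCAM, an epithelial marker, was at 134 and 135 FPKM with DMSO and 49.8 and 66.7 FPKM with GSK343 in Pfeiffer. There KRT8, KRT18 and COL1A1 were at 1.04 to 5.26 FPKM, and KRT19 and COL1A2 were below 1 FPKM. Of 4 germinal centre markers, BCL6 stood at 106 and 109 FPKM with DMSO and 92.3 and 268 FPKM with GSK343 in Pfeiffer. CD38, another of the 4, was below 1 FPKM in every KARPAS-422 library. The 5 myeloid markers were below 1 FPKM in all libraries. The part of these markers in the results was not tested. EZH2 itself is not a check of the treatment, since the compounds act on the protein: its log2 difference was -0.20 with CPI-169 (limma, Benjamini-Hochberg adjusted p = 0.17) and -0.84 with GSK343 (adjusted p = 0.0017).

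Some values are limited by similar or overlapping genes. NPM1 has 45 pseudogene rows whose values summed to 239.6 to 1281 FPKM and followed NPM1 across libraries, and NHP2 and RRN3 have 2 and 3 such rows (18.3 to 58.7 and 15.8 to 32.8 FPKM). Reads of these 3 genes may have been divided among copies, and their values are uncertain. How strands were counted is not given in the sources used here, so the 14 genes that overlap another expressed gene (NOP14, NOP16, WDR12, UTP15, GNL3, NIP7, MRTO4, PPAN, NHP2, IMP4, POLR1C, RRN3, UBTF and HEATR1) are uncertain to that extent.

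**Figure D1:**
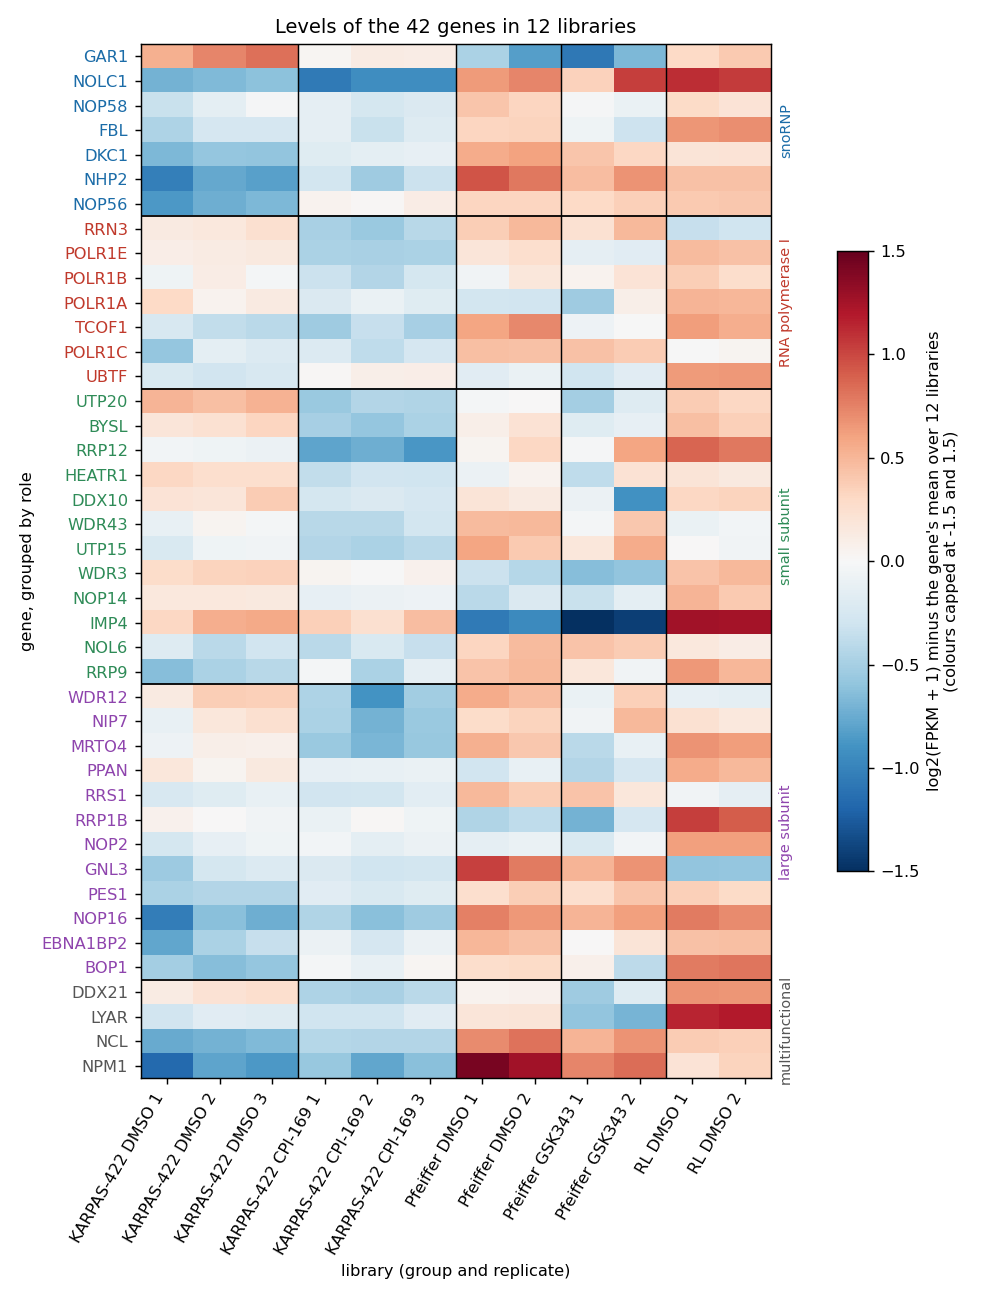
Levels of the 42 genes (rows, grouped by role, and within a role ordered by the CPI-169 difference) in the 12 libraries (columns), as log2(FPKM + 1) minus the mean of the gene over all libraries; colours are capped at -1.5 and 1.5. IMP4, NPM1 and NOLC1 show the widest colour range between lines, and UTP20, BYSL and HEATR1 turn from red to blue between the DMSO and CPI-169 columns of KARPAS-422.

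The levels spanned a wide range. NPM1 (nucleophosmin, a histone and ribosome chaperone of the nucleolus) and NCL (nucleolin, which binds the precursor RNA) were the most abundant in every group, with NPM1 means of 271 ± 36.5 FPKM (SD, n = 3) in KARPAS-422 DMSO and 1318 ± 105 FPKM (SD, n = 2) in Pfeiffer DMSO. UTP20, a scaffold of the processome, was the least abundant in every group, at 8.04 ± 0.243 FPKM (SD, n = 3) in KARPAS-422 DMSO and 3.60 ± 0.199 FPKM (SD, n = 3) with CPI-169. In the plot of levels by library, IMP4 and NPM1 stand apart mainly by line, while BYSL is lowest in the 3 CPI-169 libraries and UTP20 in those and GSK343 replicate 1.

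CPI-169 in KARPAS-422 divided the 42 genes. By limma on log2(FPKM + 1), with Benjamini-Hochberg adjustment over all 18731 genes and a threshold of 0.05, 9 genes were higher (21.4%, against 26.9% of all genes tested), 18 were lower (42.9%, against 27.3%) and 15 were not called. The median log2 difference was -0.13, beside 0.01 over all genes tested. The median level of the 42 genes was 29.5 to 30.9 FPKM in the DMSO libraries and 24.2 to 25.2 FPKM in the treated ones, with no overlap. Their share of all FPKM did overlap, as given above, and the abundant genes NOP56 and NCL were among those higher.

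Of the 12 small subunit genes, 9 fell with CPI-169 and none rose (1 was higher at an unadjusted p under 0.05), with a median log2 difference of -0.33. The shares were 75% lower (against 27.3% of all genes tested) and 0% higher (against 26.9%). Without CPI-169 replicate 1 the lower count was 5, with DDX10, UTP15, WDR43 and NOP14 no longer called, and after quantile normalization 1 rose and 7 fell. UTP20 (chr12:101673886-101780394 in hg19) stood at 8.11, 7.77 and 8.24 FPKM with DMSO and 3.38, 3.74 and 3.70 FPKM with CPI-169. The log2 difference was -0.97 ± 0.09 SE, the lowest of the 42 genes (limma adjusted p = 6.6e-06). UTP20, BYSL and RRP12 were picked as among the lowest, so nothing is read from the lack of overlap between their libraries. BYSL (chr6:41888925-41900784), which helps to mature the pre-40S particle, had values of 31.0, 32.1 and 34.2 FPKM with DMSO and 18.9, 17.7 and 19.3 FPKM with CPI-169. Its log2 difference was -0.77 ± 0.07 SE (limma adjusted p = 5.6e-06). RRP12, a factor in export of the 40S precursor, went from 9.46, 9.33 and 9.11 FPKM to 5.25, 5.47 and 4.87 FPKM, a log2 difference of -0.73 ± 0.13 SE (limma adjusted p = 0.00084). HEATR1 (UTP10), which also supports RNA polymerase I transcription, went from 22.0, 21.1 and 21.1 FPKM to 13.3, 14.1 and 14.0 FPKM and its log2 difference was -0.60 ± 0.12 SE. DDX10, UTP15, WDR43, WDR3 and NOP14 were lower by smaller steps, with log2 differences between -0.50 and -0.25. IMP4, NOL6 and RRP9 were not called. RRP9, which binds the U3 snoRNA, was the single gene of the 12 with a positive difference (0.30 ± 0.12 SE, limma adjusted p = 0.056), and its groups overlapped.

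The snoRNP genes did not move as one. Of 7, NOP56, DKC1 and NHP2 rose, GAR1 fell, and FBL, NOP58 and NOLC1 were not called. The shares were 42.9% higher (against 26.9% of all genes tested) and 14.3% lower (against 27.3%). NOP56 (chr20:2632790-2639039) had the highest difference of the 42 genes: 75.7, 82.4 and 86.0 FPKM with DMSO and 143, 139 and 149 FPKM with CPI-169, a log2 difference of 0.81 ± 0.07 SE (limma adjusted p = 5.5e-06). Its paralogue and partner NOP58 stood at 42.4, 48.4 and 53.2 FPKM with DMSO and 48.9, 44.8 and 46.1 FPKM with CPI-169 (-0.04 ± 0.09 SE, adjusted p = 0.76), and the methyltransferase FBL at 128, 148 and 148 FPKM with DMSO and 159.9, 140.2 and 154 FPKM with CPI-169 (0.10 ± 0.10 SE, adjusted p = 0.41). For both, treated and control libraries overlapped. The ratio of NOP56 to NOP58, proteins that sit together in the box C/D particle, was 1.62 to 1.78 with DMSO and 2.93 to 3.23 with CPI-169.

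In the H/ACA class the split ran between partners. DKC1 (chrX:153991030-154005964), dyskerin, the pseudouridine synthase, went from 43.8, 46.8 and 46.8 FPKM to 62.2, 63.9 and 65.0 FPKM (0.47 ± 0.06 SE, limma adjusted p = 0.0001). NHP2, a core protein of the same particle, went from 28.8, 34.6 and 33.4 FPKM to 49.1, 40.9 and 47.5 FPKM (0.49 ± 0.10 SE, adjusted p = 0.0016). GAR1 (chr4:110736665-110745893), the third core protein here, went the other way, from 46.1, 52.8 and 56.4 FPKM to 32.1, 34.2 and 34.0 FPKM (-0.61 ± 0.12 SE, adjusted p = 0.0016). DKC1, NHP2 and GAR1 were named for large differences or after their values were seen. Nothing is therefore read from the lack of overlap between their libraries. DKC1 stood at 0.830 to 0.952 times the level of GAR1 with DMSO and at 1.87 to 1.94 times with CPI-169. The same ratio was 4.69 to 6.25 in Pfeiffer and 1.97 to 2.07 in RL with DMSO.

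**Figure D2:**
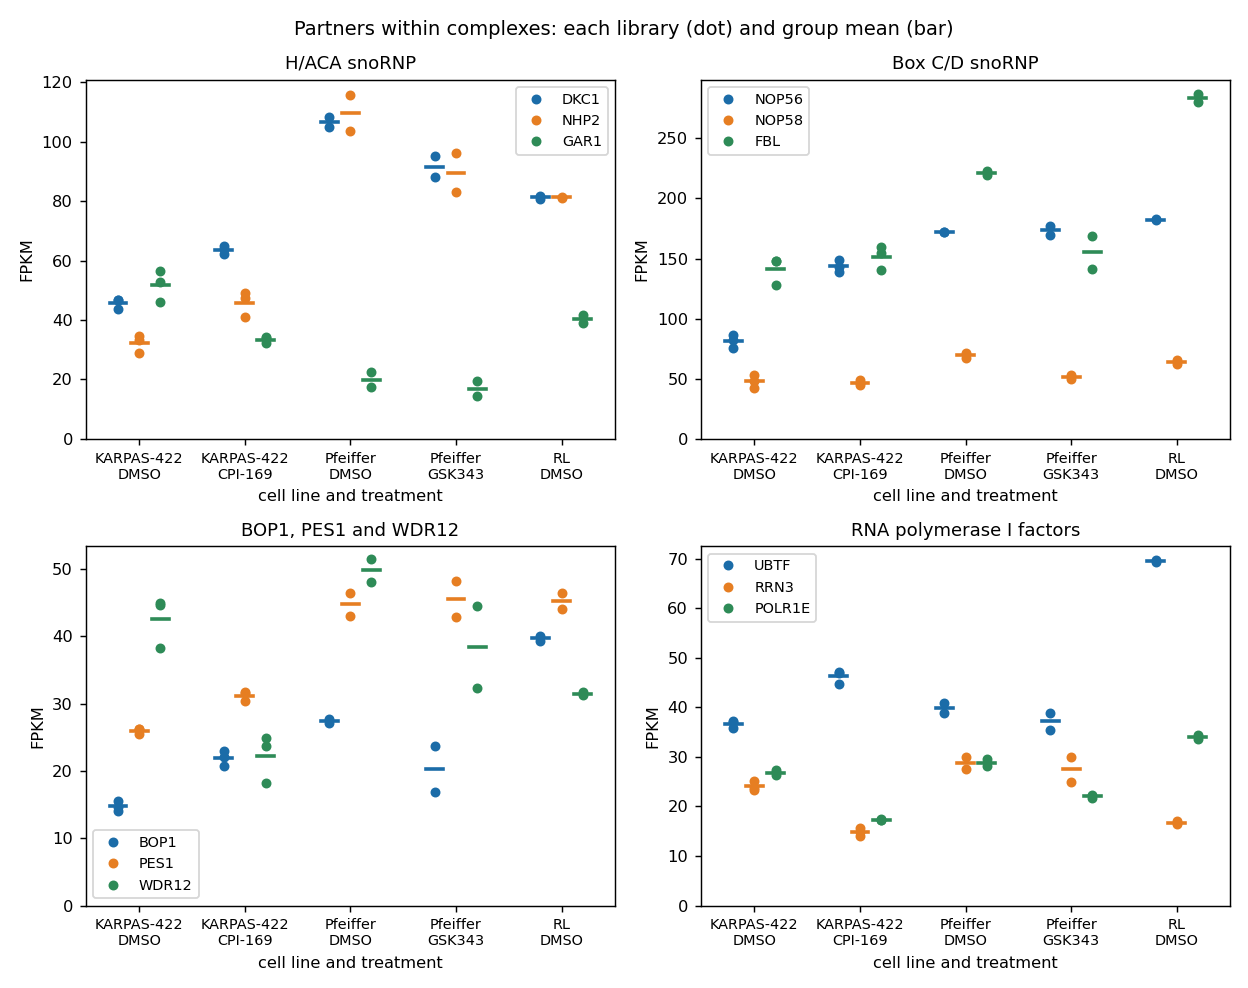
FPKM of genes whose proteins work together, in each library (dots) with the group mean (bars), for the 5 groups of cell line and treatment. With CPI-169 in KARPAS-422, DKC1 and NHP2 are higher while GAR1 is lower, NOP56 is higher while NOP58 overlaps its control, BOP1 and PES1 are higher while WDR12 is lower, and UBTF is higher while RRN3 and POLR1E are lower.

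Of 12 large subunit genes, 4 were higher and 4 lower, with a median log2 difference of 0.00. These shares, 33.3% each, were near the 26.9% higher and 27.3% lower of all genes tested. BOP1 and PES1, which bind WDR12 in a complex needed to process the large subunit RNA, rose, and WDR12 fell. BOP1 stood at 15.5, 14.1 and 14.7 FPKM with DMSO and 22.0, 20.7 and 22.9 FPKM with CPI-169 (0.54 ± 0.10 SE, limma adjusted p = 0.0012), and PES1 at 25.4, 26.2 and 26.2 FPKM with DMSO and 31.7, 30.4 and 31.5 FPKM with CPI-169 (0.26 ± 0.07 SE, adjusted p = 0.0069). WDR12 (chr2:203745322-203879521) stood at 38.2, 44.9 and 44.6 FPKM with DMSO and 24.9, 18.2 and 23.7 FPKM with CPI-169 (-0.91 ± 0.14 SE, adjusted p = 0.00021). The ratio of BOP1 to WDR12 was 0.314 to 0.406 with DMSO and 0.885 to 1.14 with CPI-169. EBNA1BP2 (log2 difference 0.39) and NOP16 (0.27, with overlapping groups) were the other genes called higher. NIP7 (-0.68), MRTO4 (-0.63) and PPAN (-0.23), all factors of 60S assembly, were the other genes called lower. The nucleolar methyltransferase NOP2, GNL3 (nucleostemin), RRS1 and RRP1B were not called, with log2 differences between -0.06 and 0.07.

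Among 7 RNA polymerase I genes, UBTF rose (14.3%, against 26.9% of all genes tested) and RRN3, POLR1E and POLR1B fell (42.9%, against 27.3%). UBTF (chr17:42282400-42298994), which coats active ribosomal DNA, stood at 37.3, 35.8 and 37.0 FPKM with DMSO and 44.7, 46.9 and 47.2 FPKM with CPI-169 (0.33 ± 0.06 SE, limma adjusted p = 0.0011). RRN3 (TIF-IA), which makes the polymerase competent to start, stood at 23.3, 23.7 and 25.2 FPKM with DMSO and 14.8, 14.1 and 15.6 FPKM with CPI-169 (-0.66 ± 0.08 SE, adjusted p = 5e-05). Their ratio was 1.47 to 1.60 with DMSO and 3.02 to 3.34 with CPI-169. Of the polymerase subunits, POLR1E (chr9:37485931-37503694) went from 26.3, 26.9 and 27.3 FPKM to 17.4, 17.3 and 17.3 FPKM (-0.60 ± 0.06 SE, adjusted p = 6.7e-06). The second largest subunit, POLR1B, went from 19.2, 21.9 and 19.7 FPKM to 15.9, 14.6 and 16.6 FPKM (-0.35 ± 0.09 SE). The largest subunit, POLR1A, was below its controls in every treated library (14.5, 12 and 12.7 FPKM with DMSO and 9.81, 10.7 and 10.1 FPKM with CPI-169) without passing the test (adjusted p = 0.063). POLR1C, shared with RNA polymerase III, and TCOF1 (treacle, an adaptor of the polymerase) were not called.

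The 4 multifunctional nucleolar genes gave 1 call in each direction (25% each, near the 26.9% higher and 27.3% lower of all genes tested). NCL rose, from 212, 219 and 226 FPKM to 266, 265 and 264 FPKM (0.27 ± 0.09 SE, limma adjusted p = 0.019). DDX21, a helicase that links RNA polymerase I and II transcription, fell from 82.4, 87.8 and 90.2 FPKM to 54.6, 53.6 and 56.9 FPKM (-0.65 ± 0.09 SE, adjusted p = 0.0001). NPM1 was above its controls in all 3 treated libraries (229.9, 298 and 286 FPKM with DMSO and 348, 303 and 336 FPKM with CPI-169) but was not called (adjusted p = 0.079), and LYAR had a log2 difference of -0.04.

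Of the CPI-169 calls, 7 of the 9 higher and 13 of the 18 lower were also made in each of the 12 fits that left out 1 library. NOP16 lost its call in 8 of them (log2 difference 0.14 to 0.35, highest adjusted p = 0.15): without DMSO replicate 1 or 3 or CPI-169 replicate 1 or 3 of KARPAS-422, or without any 1 of the Pfeiffer or RL DMSO libraries. PPAN lost it without any 1 KARPAS-422 library other than DMSO replicate 2 (-0.27 to -0.21, highest adjusted p = 0.068). UTP15 lost it without DMSO replicate 2 or 3 or CPI-169 replicate 1 or 2 (-0.38 to -0.29, highest adjusted p = 0.072), and WDR43 without DMSO replicate 2 or CPI-169 replicate 1 or 2 (-0.38 to -0.30, highest adjusted p = 0.066). DDX10 lost it without DMSO replicate 3 or CPI-169 replicate 1 or 3 (-0.54 to -0.43, highest adjusted p = 0.082). NCL lost it without CPI-169 replicate 1 or 3 (0.25 to 0.30, highest adjusted p = 0.059), and NOP14 without CPI-169 replicate 1 (-0.26 to -0.23, highest adjusted p = 0.055).

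With GSK343 in Pfeiffer, 14 of the 42 genes fell and none rose. The 14 lower calls make 33.3%, against 17.5% of all genes tested, and the 0 higher calls stand against 12%. At an unadjusted limma p under 0.05, 21 were lower and 0 higher. The median log2 difference was -0.22, beside -0.03 over all genes tested. Over all genes, 2254 were called higher and 3281 lower, so that 40.7% of calls were higher. After quantile normalization these were 2652 and 2548 (51.0% higher), and 5 of the 42 genes were called lower. In bulk RNA such as this, fewer cells of a type and less RNA per cell cannot be told apart.

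LYAR (chr4:4269427-4291896), a nucleolar regulator of ribosomal RNA processing, had the lowest difference. It stood at 27.1 and 27.5 FPKM with DMSO and 15.4 and 14.3 FPKM with GSK343, a log2 difference of -0.84 ± 0.08 SE (limma adjusted p = 5.2e-05). LYAR was picked as the lowest, so nothing is read from both treated libraries lying below both controls. In KARPAS-422 its groups overlapped. MRTO4 (chr1:19578032-19586622), a paralogue of the ribosomal stalk protein P0 that holds its place during assembly, went from 30.9 and 28.2 FPKM to 15.6 and 19.4 FPKM (-0.73 ± 0.11 SE, adjusted p = 0.00081). TCOF1 (chr5:149737201-149779871) went from 37.0 and 40.4 FPKM to 22.8 and 24.1 FPKM (-0.70 ± 0.09 SE, adjusted p = 0.00038). DDX10 (chr11:108535751-108811657), a helicase of small subunit processing, stood at 39.9 and 38.4 FPKM with DMSO and 32.8 and 18.1 FPKM with GSK343 (-0.66 ± 0.20 SE, adjusted p = 0.03), where the step is mostly in GSK343 replicate 2.

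By role, lower calls with GSK343 were 5 of 12 small subunit genes (DDX10, IMP4, UTP20, BYSL and WDR3), 2 of 12 large subunit genes (MRTO4 and BOP1), 2 of 7 snoRNP genes (FBL and NOP58), 2 of 7 RNA polymerase I genes (TCOF1 and POLR1E) and 3 of the 4 multifunctional genes (LYAR, NPM1 and DDX21). In this order the shares were 41.7%, 16.7%, 28.6%, 28.6% and 75%, against 17.5% of all genes tested. The large subunit share was thus near that of all genes. The small subunit count was 1 without Pfeiffer DMSO replicate 2 or after quantile normalization, 2 without DMSO replicate 1, 3 without CPI-169 replicate 1 or 3, and 0 with the replicate block or with the Pfeiffer libraries fitted alone. Without GSK343 replicate 1, 2 of the 12 were higher and 5 lower. FBL went from 219.9 and 223 FPKM to 169 and 142 FPKM (-0.52 ± 0.12 SE, limma adjusted p = 0.0082) and NOP58 from 71.8 and 67.3 FPKM to 53.0 and 50.1 FPKM (-0.42 ± 0.10 SE, adjusted p = 0.013). NOP56 stood at 172 and 172 FPKM with DMSO and 169.9 and 177 FPKM with GSK343 (0.01 ± 0.09 SE, adjusted p = 0.94). The ratio of NOP56 to NOP58 was thus 2.40 to 2.56 with DMSO and 3.20 to 3.54 with GSK343, through a fall of NOP58 here and a rise of NOP56 in KARPAS-422. NPM1 went from 1392 and 1244 FPKM to 865 and 928 FPKM (-0.55 ± 0.15 SE, adjusted p = 0.021). Of the polymerase genes, RRN3 (27.7 and 30.1 FPKM with DMSO and 24.9 and 30.0 FPKM with GSK343) and UBTF (38.9 and 40.9 FPKM with DMSO and 35.5 and 38.9 FPKM with GSK343) were not called. POLR1A stood at 9.40 and 9.29 FPKM with DMSO and 7.65 and 12.4 FPKM with GSK343 and POLR1B at 19.4 and 22.9 FPKM with DMSO and 21.0 and 23.3 FPKM with GSK343, with overlapping groups and no call. BOP1 went from 27.1 and 27.7 FPKM to 23.6 and 16.9 FPKM (-0.44 ± 0.13 SE, adjusted p = 0.026), the reverse of its direction with CPI-169. DKC1 stood at 105 and 109 FPKM with DMSO and 95.1 and 88.2 FPKM with GSK343. NHP2 stood at 116 and 104 FPKM with DMSO and 83.1 and 96.1 FPKM with GSK343. NCL stood at 589 and 633 FPKM with DMSO and 511 and 573 FPKM with GSK343. The H/ACA genes DKC1 (-0.22), NHP2 (-0.29) and GAR1 (-0.23) all had negative differences that missed the threshold (limma adjusted p = 0.055, 0.096 and 0.29).

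**Figure D3:**
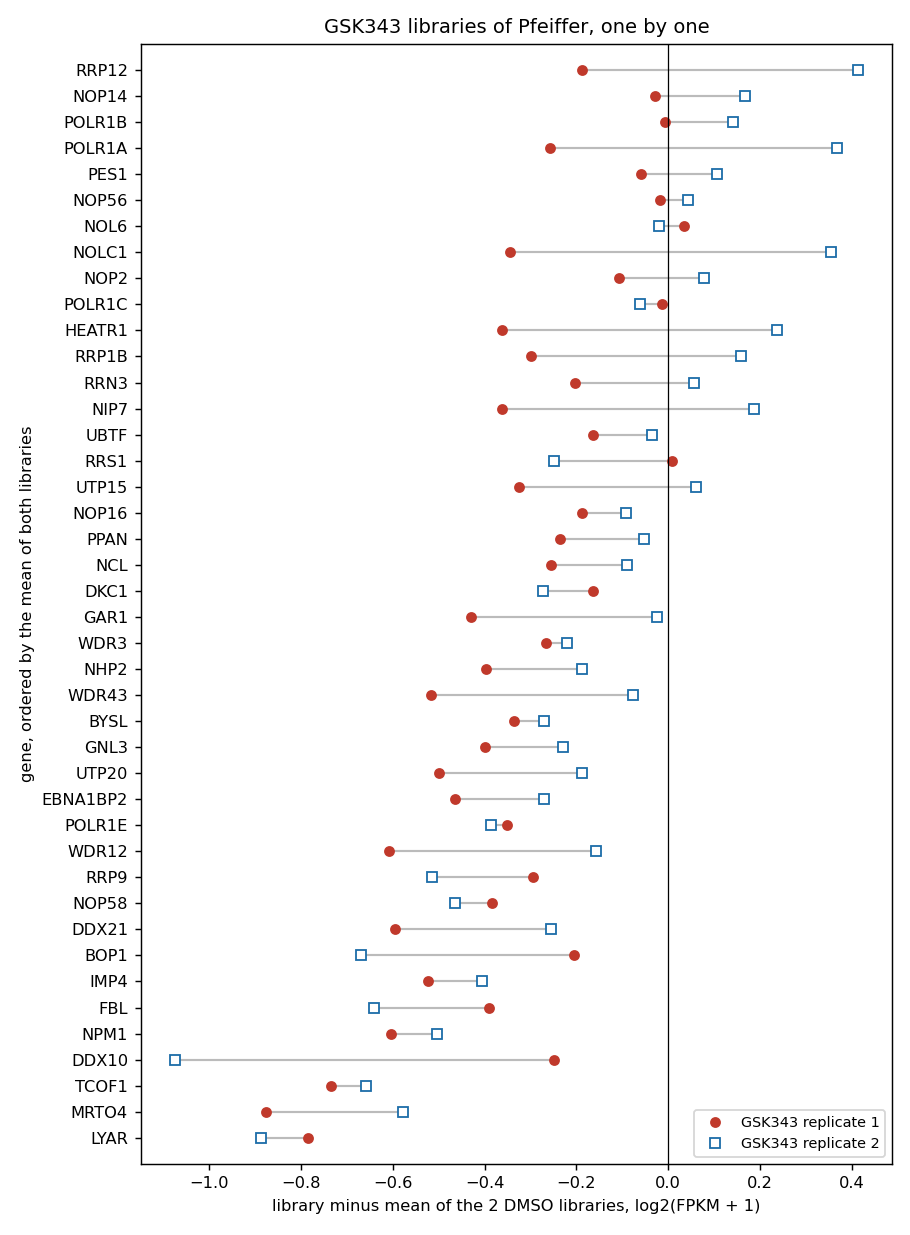
Difference of each GSK343 library from the mean of the 2 Pfeiffer DMSO libraries, on log2(FPKM + 1), for the 42 genes ordered by the mean of both libraries (filled circles, replicate 1; open squares, replicate 2). LYAR, TCOF1 and MRTO4 are low in both libraries, while RRP12, POLR1A, NOLC1 and HEATR1 lie on opposite sides of 0.

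The 2 GSK343 libraries gave different pictures. In replicate 1, 38 of the 42 genes lay below both DMSO libraries (52.3% of all genes tested did) and 0 lay above both (32.7% of all genes). In replicate 2, 26 lay below both (44.5% of all genes) and 11 above both (44.4% of all genes). The median difference was -0.31 in replicate 1 and -0.12 in replicate 2. RRP12 stood at -0.19 and 0.41, POLR1A at -0.26 and 0.37, NOLC1 at -0.35 and 0.35, and HEATR1 at -0.36 and 0.24 in replicates 1 and 2. The reverse order, with replicate 2 far lower, was seen for DDX10 (-0.25 and -1.07) and BOP1 (-0.21 and -0.67). LYAR (-0.78 and -0.89) and TCOF1 (-0.73 and -0.66) were alike in both.

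Of the 14 GSK343 calls, 5 (LYAR, MRTO4, TCOF1, FBL and POLR1E) were made in each fit that left out 1 library. Without Pfeiffer DMSO replicate 1, 7 genes were called lower, and without DMSO replicate 2, 8. BOP1 and DDX10 lost the call without either DMSO library or GSK343 replicate 2 (log2 difference -0.67 to -0.21 and -1.07 to -0.25, highest limma adjusted p = 0.11 and 0.13), and DDX21 without either DMSO library (highest adjusted p = 0.063). BYSL and IMP4 lost it without DMSO replicate 2 (highest adjusted p = 0.12 and 0.077), and NOP58 and NPM1 without DMSO replicate 1 (highest adjusted p = 0.086 and 0.13). WDR3 lost it without Pfeiffer DMSO replicate 1 or CPI-169 replicate 1 or 3 (highest adjusted p = 0.19). UTP20 lost it in 10 of the 12 fits, keeping it only without KARPAS-422 DMSO replicate 1 or GSK343 replicate 2 (highest adjusted p = 0.14). Without GSK343 replicate 1, 4 genes were called higher with GSK343. With the 4 Pfeiffer libraries fitted alone, 0 of all 18731 genes passed the threshold, and 10 of the 42 were lower at an unadjusted p under 0.05.

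The 2 treatments share no control libraries, and each gene was therefore compared between them. Called lower in both lines were 7 genes (UTP20, BYSL, DDX10, WDR3, MRTO4, POLR1E and DDX21), which is 16.7%, against 7.02% of all genes tested. They make 7 of the 18 lower calls with CPI-169 and 7 of the 14 with GSK343. Since each line alone has more lower calls among the 42 genes than among all genes, nothing is read from the overlap. A single gene, BOP1, was called higher with CPI-169 and lower with GSK343 (2.38%, against 3.18% of all genes). A further 11 were lower with CPI-169 only (26.2%, against 18.6% of all genes) and 6 lower with GSK343 only (14.3%, against 7.32%). Another 8 were higher with CPI-169 only (19%, near the 18.1% of all genes), and 9 were called in neither (21.4%, against 33.8%). A call in one line alone does not show a difference between the lines, which was tested directly as the CPI-169 difference minus the GSK343 difference.

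**Figure D4:**
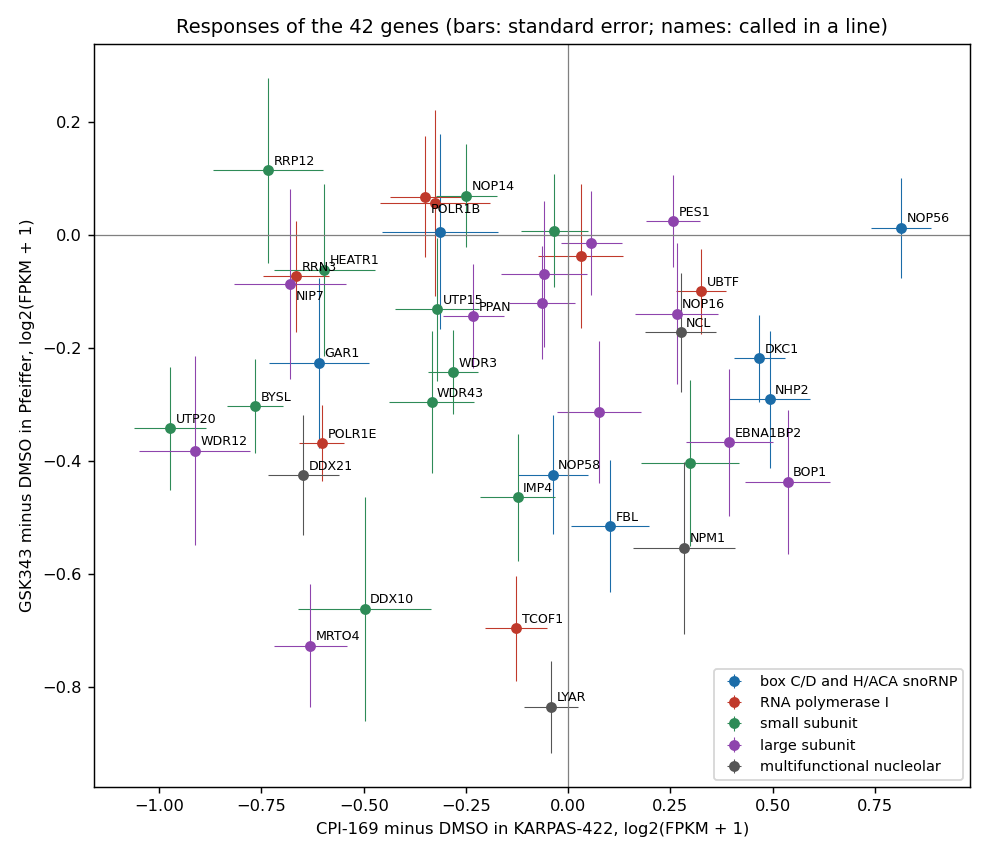
Log2 difference with CPI-169 in KARPAS-422 (horizontal) against that with GSK343 in Pfeiffer (vertical) for the 42 genes, coloured by role, with standard errors as bars; genes called in at least 1 line are named. RRP12 is the highest point on the vertical axis, at 0.11, while the horizontal axis runs from UTP20 at -0.97 to NOP56 at 0.81.

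That difference passed the limma threshold for 20 of the 42 genes, 13 positive (31.0%, against 23.8% of all genes tested) and 7 negative (16.7%, against 18.8%). After median scaling of the libraries, 3623 of all genes were positive and 4564 negative (44.3% positive, against 55.9% as deposited, 4460 and 3523), and the 42 genes gave 12 in each direction. The largest positive differences were those of BOP1 (0.97 ± 0.16 SE, limma adjusted p = 0.00098), NPM1 (0.84 ± 0.20 SE, adjusted p = 0.0065), NOP56 (0.80 ± 0.11 SE, adjusted p = 0.00037) and LYAR (0.79 ± 0.11 SE, adjusted p = 0.00024). NHP2 (0.78 ± 0.16 SE), EBNA1BP2 (0.76 ± 0.17 SE), RRP9 (0.70 ± 0.19 SE) and DKC1 (0.69 ± 0.10 SE) followed. Among the alternatives other than leaving out a library, the call of NPM1 was lost in 2 and that of FBL in 1. The 2 terms behind these differences were unlike. NOP56 rose in KARPAS-422 and had a log2 difference of 0.01 in Pfeiffer, LYAR fell in Pfeiffer and had one of -0.04 in KARPAS-422, and BOP1 rose in the first line and fell in the second. On the negative side stood RRP12 (-0.85 ± 0.21 SE, adjusted p = 0.0088), UTP20 (-0.63 ± 0.14 SE, adjusted p = 0.0048) and RRN3 (-0.59 ± 0.13 SE, adjusted p = 0.004), the first with a positive difference in Pfeiffer (0.11, not called) and the other two with smaller negative ones (-0.34 and -0.07). MRTO4 (0.10 ± 0.14 SE) and DDX10 (0.16 ± 0.26 SE) fell in both lines without a called difference. Of these calls, 11 of 13 positive and 4 of 7 negative were made in each fit that left out 1 library. NCL lost it without CPI-169 replicate 1 or 3 or Pfeiffer DMSO replicate 2 (highest adjusted p = 0.083), and POLR1B without KARPAS-422 DMSO replicate 2, CPI-169 replicate 1 or 2, Pfeiffer DMSO replicate 1 or GSK343 replicate 2 (highest adjusted p = 0.14). HEATR1 passed in none of these fits but that without GSK343 replicate 1 (-0.83 to -0.23, highest adjusted p = 0.16). NIP7 passed in that fit and in the fit without KARPAS-422 DMSO replicate 1 (-0.87 to -0.32, highest adjusted p = 0.15). NOP58 passed in 3 of the 12, those without KARPAS-422 DMSO replicate 3, CPI-169 replicate 2 or GSK343 replicate 1 (0.30 to 0.46, highest adjusted p = 0.13). The number of negative calls rose to 15 without GSK343 replicate 1 and fell to 4 without KARPAS-422 DMSO replicate 2, CPI-169 replicate 1, CPI-169 replicate 2 or Pfeiffer DMSO replicate 1.

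With DMSO alone, the differences between KARPAS-422 and Pfeiffer spanned -2.28 to 1.48 on the log2 scale, beside -0.97 to 0.81 for CPI-169 and -0.84 to 0.11 for GSK343. KARPAS-422 was lower than Pfeiffer for 23 genes (54.8%, against 43.2% of all genes tested) and higher for 8 (19.0%, against 39.8%), with a median log2 difference of -0.42. NPM1 was at 229.9, 298 and 286 FPKM in KARPAS-422 and 1392 and 1244 FPKM in Pfeiffer (-2.28 ± 0.14 SE, limma adjusted p = 5.3e-08). NHP2 (-1.74 ± 0.11 SE) and NOP16 (17.1, 23.2 and 21.4 FPKM against 61.9 and 57.7 FPKM, -1.5 ± 0.11 SE) came next. On the other side were IMP4 (chr2:131099797-131105383), a component of the U3 snoRNP, at 139.8, 165 and 167 FPKM in KARPAS-422 and 53.3 and 57.7 FPKM in Pfeiffer (1.48 ± 0.10 SE, adjusted p = 1.5e-07), GAR1 at 46.1, 52.8 and 56.4 FPKM in KARPAS-422 and 22.4 and 17.4 FPKM in Pfeiffer (1.34 ± 0.14 SE, adjusted p = 3.6e-06), and WDR3 at 33.6, 34.9 and 35.3 FPKM in KARPAS-422 and 21.9 and 20.1 FPKM in Pfeiffer (0.69 ± 0.07 SE). These 6 were picked as the furthest apart, so nothing is read from the lack of overlap between their libraries. POLR1A lost its higher call without KARPAS-422 DMSO replicate 1 or either Pfeiffer DMSO library, PPAN lost its own without Pfeiffer DMSO replicate 1, and RRN3 lost its lower call without KARPAS-422 DMSO replicate 1 or 2 or Pfeiffer DMSO replicate 2 (highest limma adjusted p = 0.076, 0.055 and 0.15).

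RL was higher than KARPAS-422 for 28 genes (66.7%, against 33.6% of all genes tested) and lower for 3 (7.14%, against 33.2%), with a median log2 difference of 0.45 beside 0.00 over all genes. NOLC1 (chr10:103911932-103923627), a chaperone of snoRNPs, stood at 108 and 104 FPKM in RL and 30.1, 31.0 and 32.0 FPKM in KARPAS-422 (1.74 ± 0.16 SE, limma adjusted p = 2.4e-06). NOP16 stood at 63.1 and 59.8 FPKM in RL and 17.1, 23.2 and 21.4 FPKM in KARPAS-422 (1.54 ± 0.11 SE), and LYAR at 54.0 and 55.8 FPKM in RL and 19.3, 21.2 and 20.8 FPKM in KARPAS-422 (1.38 ± 0.07 SE). Of the other genes followed in every library, RL had FBL at 280.0 and 287 FPKM, DKC1 at 80.9 and 81.8 FPKM and NCL at 468 and 461 FPKM. NPM1 was at 599 and 655 FPKM, UBTF at 69.3 and 69.7 FPKM and POLR1B at 26.3 and 24.4 FPKM. These genes were all called higher than in KARPAS-422. POLR1A, at 16.9 and 16.7 FPKM in RL, was not called. The 3 genes lower in RL were RRN3 (16.4 and 17.1 FPKM, -0.50 ± 0.09 SE, adjusted p = 0.00051), WDR12 (-0.42 ± 0.15 SE, adjusted p = 0.03) and GAR1 (-0.35 ± 0.14 SE, adjusted p = 0.043). WDR12 lost its call without KARPAS-422 DMSO replicate 2 or 3 or either RL library (highest adjusted p = 0.12), and GAR1 lost it in 7 of the 12 fits that left out 1 library (highest adjusted p = 0.19), those without DMSO replicate 2 or 3 or any CPI-169 library of KARPAS-422 or either RL library. Of the higher calls, NOP14 and POLR1B were lost without RL replicate 1 and POLR1C without either RL library (highest adjusted p = 0.088, 0.12 and 0.13).

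RL was higher than Pfeiffer for 17 genes (40.5%, against 35.6% of all genes tested) and lower for 12 (28.6%, against 38.7%), with a median log2 difference of 0.17. IMP4 again had the widest gap, at 271 and 268 FPKM in RL and 53.3 and 57.7 FPKM in Pfeiffer (2.26 ± 0.11 SE, limma adjusted p = 1.8e-08), followed by RRP1B, a 60S factor, at 47.3 and 43.0 FPKM in RL and 16.2 and 17.1 FPKM in Pfeiffer (1.38 ± 0.13 SE), and GAR1 (0.99 ± 0.15 SE). GNL3 (chr3:52715171-52728508) was the gene furthest below, at 48.8 and 49.2 FPKM in RL and 153 and 129 FPKM in Pfeiffer (-1.5 ± 0.13 SE, adjusted p = 1.1e-06). NPM1 (-1.07 ± 0.15 SE) and RRN3 (-0.75 ± 0.10 SE) followed, but NPM1 stood at 0.089 after quantile normalization. Without 1 of the Pfeiffer DMSO or RL libraries, 4 higher calls (FBL, UTP20, BYSL and POLR1E) and 3 lower calls (NHP2, NOL6 and POLR1C) were lost in at least 1 fit, with a highest limma adjusted p from 0.053 for POLR1E to 0.19 for NOL6. FBL was lost without any 1 of the 4 libraries, UTP20, BYSL and POLR1E without replicate 1 of either line, NHP2 without Pfeiffer replicate 1, POLR1C without RL replicate 1, and NOL6 without Pfeiffer replicate 2 or either RL library. The baseline comparisons share DMSO libraries with one another and with the treatment comparisons. Line and the number series of the libraries cannot be told apart either. UBTF stood at 69.5 ± 0.286 FPKM (SD, n = 2) in RL, at 39.9 ± 1.37 FPKM (SD, n = 2) in Pfeiffer and at 36.7 ± 0.804 FPKM (SD, n = 3) in KARPAS-422. RL lay above both other lines, which did not differ beyond the test (-0.12 ± 0.07 SE, adjusted p = 0.14).

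Genes with and without CACGTG in the promoter stretch were set side by side. With CPI-169, the 16 genes with it gave 2 higher and 7 lower calls (median log2 difference -0.08) and the 18 without it 6 higher and 9 lower (-0.26). With GSK343 there were 0 higher and 7 lower calls among the 16 (median -0.33) and 0 higher and 3 lower among the 18 (-0.14). In RL against KARPAS-422 the counts were 11 higher and 1 lower of the 16 (median 0.54), and 10 higher and 2 lower of the 18 (0.34). In RL against Pfeiffer they were 9 higher and 3 lower of the 16 (0.30), and 4 higher and 8 lower of the 18 (-0.04). In KARPAS-422 against Pfeiffer they were 4 higher and 9 lower of the 16 (-0.42), and 3 higher and 9 lower of the 18 (-0.24). The shares over all genes tested are those given above for each comparison. No test was made of these splits. MYC itself, the factor known to bind the word, stood at 96.8, 110 and 98.6 FPKM with DMSO and 200.4, 192 and 203 FPKM with CPI-169 in KARPAS-422 (0.96 ± 0.14 SE, limma adjusted p = 0.00015). It stood at 73.3 and 78.1 FPKM with DMSO and 66.9 and 105 FPKM with GSK343 in Pfeiffer (0.15 ± 0.17 SE, adjusted p = 0.55), where replicate 1 lies below and replicate 2 above both controls. The MYC difference between the treatments was 0.81 ± 0.22 SE (adjusted p = 0.012). Of the 16 genes with CACGTG, PES1 and EBNA1BP2 were called higher with CPI-169, and UTP20, BYSL, DDX21, GAR1, MRTO4, WDR43 and NOP14 were called lower.

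Other genes of the pathway were counted from lists of further factors. Beside them stand the shares over all genes tested, 26.9% higher and 27.3% lower with CPI-169 and 12% higher and 17.5% lower with GSK343. With CPI-169, 27 of 43 other small subunit and 40S assembly genes fell and 4 rose (median -0.44), among them FCF1, a nuclease-like factor of the processome, at 63.3, 66.0 and 72.2 FPKM with DMSO and 29.6, 29.8 and 30.3 FPKM with CPI-169 (-1.14 ± 0.09 SE, limma adjusted p = 3e-06). Of 41 other 60S assembly genes 23 fell and 4 rose (median -0.30), with SBDS, which frees EIF6 from the 60S particle, at 35.9, 45.5 and 47.1 FPKM with DMSO and 17.7, 17.3 and 18.8 FPKM with CPI-169 (-1.20 ± 0.12 SE). Of 18 other RNA polymerase I genes 7 fell and 4 rose, with TAF1A, a subunit of the promoter factor SL1, at 22.1, 23.3 and 23.3 FPKM with DMSO and 9.77, 9.79 and 11.1 FPKM with CPI-169 (-1.09 ± 0.09 SE). Of 10 other snoRNP genes 4 fell and 1 rose. Lower counts became 4 of the 18 without CPI-169 replicate 2 and 2 of the 10 without DMSO replicate 2 or 3 or CPI-169 replicate 2 of KARPAS-422. Higher counts of the 43 and of the 41 became 2 without DMSO replicate 1 or CPI-169 replicate 1 or 3, and of the 41 also without DMSO replicate 2. The RNA exosome, which trims ribosomal RNA precursors, had 10 of 14 genes lower and 2 higher. With GSK343, lower and higher calls were 12 and 0 of the 43, 16 and 1 of the 41, 10 and 0 of the 18, 7 and 0 of the 10, and 11 and 0 of the 14 exosome genes. After quantile normalization these GSK343 counts were 5 and 2, 2 and 3, 5 and 2, 2 and 0, and 6 and 0, and none of these genes was called with the Pfeiffer libraries fitted alone. In the same order of lists, the lower counts were 3, 2, 4, 1 and 7 without Pfeiffer DMSO replicate 1, 10, 6, 3, 0 and 8 without DMSO replicate 2, and 6, 4, 5, 1 and 7 with the replicate block. Without GSK343 replicate 1 the higher counts were 2, 4, 3, 0 and 1, and without replicate 2 the lower count of RNA polymerase I genes was 5. Leaving out a library of another line moved the 60S count to as few as 8 and the snoRNP count to as few as 3. EXOSC8, an exosome core subunit, was lower in both lines (-0.87 ± 0.10 SE and -1.06 ± 0.12 SE).

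Cytosolic ribosomal protein genes encode the proteins that these factors assemble with ribosomal RNA. With CPI-169, 18 of 79 rose (22.8%, against 26.9% of all genes tested) and 0 fell (against 27.3%; median log2 difference 0.22, with 24 higher and 0 lower at an unadjusted limma p under 0.05). RPL14 stood at 104, 136 and 129 FPKM with DMSO and 238, 199.6 and 229 FPKM with CPI-169 (0.86 ± 0.11 SE, adjusted p = 0.0001). The higher count was 7 with the replicate block, 9 without CPI-169 replicate 1 or 3, and 25 with 5 lower after quantile normalization. With GSK343, 0 of the 79 passed the threshold in either direction (0 higher and 4 lower unadjusted, median -0.20). Without GSK343 replicate 1, 16 of them were called lower, and without KARPAS-422 DMSO replicate 1, 3 were. At baseline, 77 of the 79 were lower in KARPAS-422 than in Pfeiffer (97.5%, against 43.2% of all genes tested, median -1.85). Quantile normalization turned this count into 52 lower and 12 higher. RL was also lower than Pfeiffer for 71 of the 79 genes (89.9%, against 38.7% of all genes tested). It was higher for 3 (3.80%, against 35.6%). After quantile normalization 41 were lower and 13 higher. All 10 listed proliferation genes fell with GSK343 (100%, against 17.5% of all genes tested, median -1.98). With CPI-169, 6 of these 10 fell (60%, against 27.3% of all genes tested) and 3 rose (30%, against 26.9%). Without CPI-169 replicate 3, 3 fell. The part of the proliferation genes in the results for the 42 genes was not tested.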

How the data were processed

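The data are 1 table of FPKM values that the authors deposited, with 12 libraries and 63129 gene IDs from Ensembl. The submitters' processing notes name TopHat 1.4.1, Cufflinks and the hg19 genome. Not given in the sources used here: the Cufflinks version, the annotation, the library kit, the handling of strand and the lysis reagent of each library. FPKM is a share of each library, so an abundant transcript lowers the values of all others. Read depth is unknown. The steps between low values gave a depth relative to DMSO replicate 1 of 0.646 to 1 for KARPAS-422 libraries, 1 to 1.34 for Pfeiffer libraries and 0.774 to 1 for RL libraries. Columns were matched to samples by title, and groups and replicate numbers come from the labels. Missing values removed 77 genes, and the 5756 IDs on patches and haplotypes were at 0 throughout.

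A gene was kept at 1 FPKM or more in 2 or more libraries (18731 genes). Values were transformed to log2(FPKM + 1), on which every log2 difference stands, and which understates changes of low genes. All 5 groups entered a single limma model (limma 3.58.1, R 4.3.3) with a mean-variance trend, where the residual degrees of freedom were 7 and the prior ones 3.45. P-values were adjusted by Benjamini-Hochberg over all genes tested and read at 0.05. Since the spread is pooled over groups, disagreement between the 2 GSK343 libraries widens the standard error of a gene in every comparison. For such a gene, pooling with the tighter groups also makes GSK343 standard errors smaller than these 2 libraries would give. The p-values of the GSK343 comparison and of the difference between treatments may then be too small. The fit was tested on simulated data with the same spread in all groups, which does not bear on this point. Any of the 42 genes could be named. Values in every library are printed for 8 genes, the 4 highest and 4 lowest calls per treatment, the 3 highest and 3 lowest per pair of lines, and the 5 differences between treatments with the smallest adjusted p. They are also printed for some others, mostly partners in a complex, chosen after their values were seen. Of other genes, only MYC, EZH2, markers and at most 2 calls in each direction per list and treatment are named. The members and lists were chosen with earlier results of these data known, and no list was given a test of its own. Alternatives were another pseudocount, other filters on low values, quantile normalization, median scaling, no variance trend, fits of the compared groups alone, a replicate block, and leaving out each library. Promoter sequences are from RefSeq (GRCh38.p14) and exons from GENCODE, and no coordinates were converted between builds.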

Additional observations from a re-analysis of the deposited data

Results flagged for a closer look

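For 20 of the 42 genes the response to CPI-169 in KARPAS-422 and the response to GSK343 in Pfeiffer differed by a test of the difference itself (limma, Benjamini-Hochberg adjusted over all genes). The same test called 7983 of all 18731 genes. Positive calls were 31.0% of the 42 genes, against 23.8% of all genes tested, and negative ones 16.7%, against 18.8%. The calls of HEATR1, NIP7, NOP58, POLR1B and NCL were lost in some fits that left out 1 library. Values are the CPI-169 minus the GSK343 log2 difference. Among snoRNP genes it was 0.80 for NOP56, 0.78 for NHP2, 0.69 for DKC1, 0.62 for FBL and 0.39 for NOP58. Among RNA polymerase I genes it was 0.57 for TCOF1, 0.43 for UBTF, -0.42 for POLR1B and -0.59 for RRN3. Small subunit genes gave 0.70 for RRP9, -0.46 for BYSL, -0.53 for HEATR1, -0.63 for UTP20 and -0.85 for RRP12. Large subunit genes gave 0.97 for BOP1, 0.76 for EBNA1BP2 and -0.59 for NIP7. The multifunctional genes gave 0.84 for NPM1, 0.79 for LYAR and 0.45 for NCL. Line and compound cannot be told apart in these values. No group has 4 or more libraries, so no library was tested as an outlier of its group.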

How the results depend on the processing

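Over the 20 alternatives, the counts called with CPI-169 ran from 7 to 10 higher and from 13 to 20 lower, around 9 and 18. The GSK343 count moved most: beside 14 lower it was 5 after quantile normalization, 0 with only the Pfeiffer libraries fitted, 4 with the replicate block, and 7 to 20 without 1 library, while the higher count ran from 0 to 4 without 1 library. For the difference between treatments, 7 negative calls became 12 after quantile normalization and 12 after median scaling, 4 with the replicate block, and 4 to 15 without 1 library. For RL against KARPAS-422, 3 lower calls became 1 without the filter on low values, 1 with the replicate block, and 1 to 4 without 1 library. Whether replicate numbers pair the libraries could not be settled. Deviations of same-numbered libraries from their group means correlated at -0.152, -0.252 and 0.156 in KARPAS-422 and at 0.14 in Pfeiffer. Such deviations sum to 0 within a group. With 2 libraries per group the Pfeiffer correlations are therefore 1 value with its sign changed (-0.14 for unlike numbers). In KARPAS-422 not every library correlated best with its own number. Genes called on at least 1 side of a change of sign were FBL in KARPAS-422 against Pfeiffer (0.042 after quantile normalization), NCL (0.45) and NPM1 (0.089) in RL against Pfeiffer after quantile normalization, HEATR1 with GSK343 (-0.36 without GSK343 replicate 2 and 0.24 without GSK343 replicate 1) and NOLC1 with GSK343 (-0.35 without GSK343 replicate 2 and 0.35 without GSK343 replicate 1). Differences called on neither side also changed sign, for 21 genes with GSK343 (among them RRP12, POLR1A and NIP7, when 1 GSK343 library was left out), 8 with CPI-169, 12 in the difference between treatments, and 2 to 4 in each baseline comparison. The cause was not tested. Quantile normalization moved the median over all genes from -0.06 to 0.10 in KARPAS-422 against Pfeiffer and from -0.03 to 0.13 in RL against Pfeiffer. A lone library left in a group is assumed to vary like the other groups.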

Other observations

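RNA polymerase III, which makes 5S ribosomal RNA and transfer RNA, had 11 of 22 listed genes lower (50%, against 27.3% of all genes tested) and 5 higher (22.7%, against 26.9%) with CPI-169. With GSK343, 3 were lower (13.6%, against 17.5%) and 0 higher (against 12%), but 5 were lower and 5 higher without GSK343 replicate 1, 8 lower without replicate 2, and 0 in either direction with the Pfeiffer libraries fitted alone. Its initiation factors BRF1 and BRF2 went opposite ways with CPI-169. BRF1 went from 10.2, 8.44 and 8.30 to 13.1, 14.3 and 13.5 FPKM (0.56 ± 0.10 SE, limma adjusted p = 0.00066) and BRF2 from 10.9, 11.8 and 12.4 to 6.01, 6.01 and 5.76 FPKM (-0.87 ± 0.09 SE, adjusted p = 1.4e-05). POLR3G, one of a pair of alternative subunits, was lower with GSK343, from 13.6 and 12.3 to 5.03 and 6.51 FPKM (-1.05 ± 0.13 SE, adjusted p = 0.00024).

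Nucleotide synthesis genes, which supply the precursors of ribosomal RNA, gave shares near those of all genes with CPI-169 (5 of 14, 35.7%, higher against 26.9%, and 4, 28.6%, lower against 27.3%). With GSK343, 7 of the 14 were lower (50%, against 17.5%) and 0 higher (against 12%), and the lower count was 11 without GSK343 replicate 2, 4 after quantile normalization and 0 with the Pfeiffer libraries fitted alone. CTPS1 and IMPDH2, which make CTP and the guanine nucleotide precursor, were higher with CPI-169 (1.29 ± 0.11 SE and 1.28 ± 0.10 SE), while PPAT, the first enzyme of purine synthesis, was lower in both lines (-0.70 ± 0.09 SE and -0.62 ± 0.11 SE). Among partners and rivals of MYC, MXD4, a MAX-binding repressor, was higher in both lines (2.00 ± 0.08 SE and 1.53 ± 0.10 SE). MXD3 was higher with CPI-169 (0.99 ± 0.12 SE) and lower with GSK343 (-1.81 ± 0.15 SE), and MXD1 was lower with CPI-169 (-1.66 ± 0.09 SE) and higher with GSK343 (0.78 ± 0.11 SE). The difference between the treatments passed the limma threshold for MXD3 (2.80 ± 0.19 SE, adjusted p = 4.1e-06) and MXD1 (-2.44 ± 0.14 SE, adjusted p = 1.6e-06).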
